A study of Mus musculus with 33 samples.

Results

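Mouse embryonic fibroblasts that had been kept for 1 week with RepSox were compared with untreated mouse embryonic fibroblasts. The members were the arrays titled MEF RepSox 1 week (3 arrays) and MEF (3 arrays), 6 of the 33 arrays of the series, and all genes measured on them were described. Total RNA was measured on Illumina bead arrays, and levels are given as normalized log2 intensity. The remaining arrays were of the embryonic stem cell lines R1 and V6.5, of an induced pluripotent stem line, and of OKMS6, a partially reprogrammed line sampled with and without RepSox after 10, 24 and 48 h. Both fibroblast groups are labelled as embryonic fibroblast cells with no strain, genotype, passage or pooling given, and RepSox is the only agent named. The labels give no culture time for the untreated fibroblasts, so RepSox and 1 week of culture cannot be told apart. Stem cell medium with either fetal bovine serum or serum replacement was used in the series, on gelatin that carried irradiated feeders or none, and the labels leave unsaid which of these held for the fibroblasts. Whether the 3 arrays of a group came from separate cultures is not stated, so the spread among them may be technical. The p-values rest on that spread pooled with the spread within the other groups of the fit, 27 arrays of 9 groups in all.

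RepSox is a small-molecule inhibitor of ALK5, the type I receptor kinase for TGF-beta, which Tgfbr1 encodes. When TGF-beta binds its receptors, this kinase phosphorylates Smad2 and Smad3, which enter the nucleus with Smad4 and act on genes for collagens, matrix crosslinking enzymes and contractile proteins. BMPs, ligands of the same family, signal through other type I receptors and Smad1, Smad5 and Smad8, with the Id genes among their targets. Embryonic fibroblasts secrete much of the matrix of connective tissue, and cultures of them can also give rise to fat cells, in which TGF-beta is known as an inhibitor and Pparg and Cebpa as the central transcription factors.

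The untreated arrays were alike, with correlations of 0.996 to 0.997 across the 8658 tested genes. Treated arrays 1 and 2 correlated at 0.997 with each other, but treated array 3 correlated with them at 0.973 and 0.975. It had a median scanner intensity of 7.1 against 4.77 and 4.83, and 52% of probes detected against 48.2% and 47.3%. Its level lay more than 1 log2 unit from the mean of the other 2 treated arrays for 256 genes, while treated arrays 1 and 2 lay that far apart for 4 genes. Values without it are therefore given wherever a statement rests on it. All 13 fibroblast markers, among them Thy1, Pdgfra, Prrx1, Twist1 and Vim, were detected on all 6 arrays. Of 6 stem cell markers 4, among them Nanog, Pou5f1 and Sox2, were detected on none of the 6, while Zfp42 was detected on every array and Dppa5a on 3. Of 4 endothelial markers Pecam1, Cdh5 and Kdr were detected on none and Tek on 3, and of 3 measured leukocyte markers Ptprc and Tyrobp were detected on none and Lyz2 on 5.

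Of the 8658 genes, those detected on at least 3 of the 6 arrays, 1375 rose and 1671 fell with RepSox at an adjusted p under 0.05. These were 35.2% of the tested genes, 15.9% up and 19.3% down. The counts given below for gene lists are to be read against these shares. A change of at least 2-fold was called for 354 rises and 292 falls, 7.46% of the tested genes, and a change of at least 8-fold for 20 rises and 9 falls. The values of the groups did not overlap for 4001 genes, 46.2% of those tested. Without treated array 3, 1343 genes rose and 1386 fell, and 2378 genes were called in the same direction in both fits. In the fit and in each of 16 alternatives, 1348 genes were called, 683 up and 665 down. The median log2 change over all tested genes was -0.04. The 3 treated arrays detected 231 tested genes that no untreated array detected, and 69 genes had the opposite pattern. These are bulk cultures, in which a change in the number of cells of a type and a change in RNA per cell cannot be told apart.

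**Figure D1:**
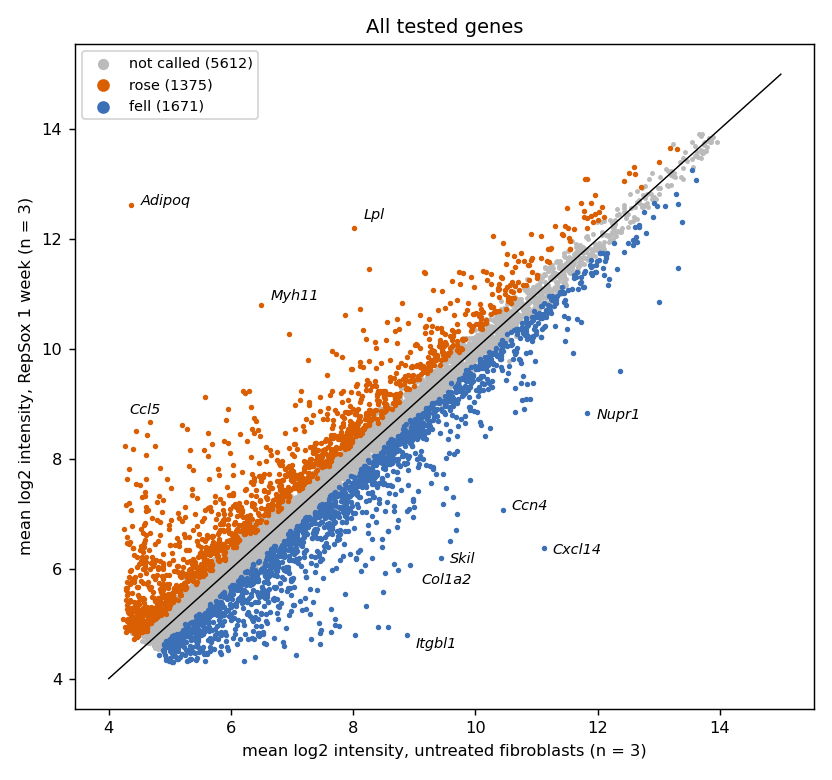
Mean log2 intensity of each tested gene in untreated fibroblasts (horizontal axis, n = 3) and after 1 week of RepSox (vertical axis, n = 3). Each point is a gene, coloured by its call at an adjusted p under 0.05, and the line marks equal levels. Adipoq stands far above the line at a treated mean of 12.63, and Cxcl14, Itgbl1 and Nupr1 lie far below it.

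The named gene with the largest rise was Adipoq, which encodes adiponectin, a hormone secreted by fat cells. Its log2 intensity was 4.37, 4.37 and 4.37 on the untreated arrays and 12.70, 12.32 and 12.86 on the treated arrays. No untreated array detected it, so the rise was at least 226-fold (adjusted p = 1.46e-28). None of the 21 arrays of R1 and OKMS6 cells in the fit detected Adipoq either. The smooth muscle myosin heavy chain gene Myh11 followed, at 6.48, 6.54 and 6.45 on the untreated arrays and 10.51, 10.70 and 11.16 on the treated arrays, a 19.7-fold rise with no overlap between groups. Lpl, the lipoprotein lipase with which fat and muscle cells take up fatty acids from circulating lipid, measured 8.09, 7.86 and 8.11 on the untreated arrays and 12.21, 11.89 and 12.51 on the treated arrays and rose 18.2-fold. Myh11 was detected on 0 of the 21 other arrays and Lpl on 3 of them.

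Several of the other large rises were of genes known from fat cells or fat tissue. Adig (adipogenin) rose at least 8.02-fold, Car3 (carbonic anhydrase 3, abundant in fat) at least 10.7-fold, and Acvr1c (ALK7, a type I receptor of the TGF-beta family expressed in fat cells) at least 7.08-fold. Fabp5, a fatty acid binding protein, rose 10.7-fold. Hp, which encodes the haemoglobin-binding protein haptoglobin, rose by 3.47 log2 units, and by 3.10 without treated array 3. Ccl5, a chemokine that attracts T cells and monocytes, rose at least 13.0-fold, from values undetected on the untreated arrays to 8.54, 8.52 and 8.47 on the treated arrays. Wfdc21 rose at least 12.3-fold and Cyp2f2, a cytochrome P450, at least 10.3-fold. Rassf4, Tmem178, Scara5 (a scavenger receptor) and Selenop (the plasma selenium carrier) completed the 15 largest rises, at 4.01, 3.54, 3.45 and 3.32 log2 units. The probes used for Hp, Rassf4 and Scara5 were each detected on 1 of the 3 untreated arrays, so their sizes rest partly on background. All 15 were called in each of the 16 other ways of processing the arrays.

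The deepest fall was that of the chemokine gene Cxcl14, at 10.94, 11.14 and 11.27 on the untreated arrays and 5.94, 6.32 and 6.84 on the treated arrays, or 26.9-fold lower with RepSox (adjusted p = 5.55e-17). Itgbl1, an integrin beta-like secreted protein, fell 16.9-fold and was detected on 2 of the 3 treated arrays. C1qtnf3, a secreted relative of adiponectin, fell 12.4-fold, and Ccn4 (WISP1), a matricellular protein induced by Wnt signalling, fell 10.4-fold. The calpain relative Capn6, the vasopressin receptor Avpr1a, the nucleotide receptor P2ry6 and the choline transporter Slc5a7 fell, with log2 changes of -3.23, -3.08, -2.91 and -3.48. Fxyd6, a regulator of the sodium pump, was detected on none of the treated arrays and was at least 6.77-fold lower. Map2 (a microtubule protein), Pdgfrl and Pon3 (a paraoxonase) fell, with log2 changes of -2.98, -2.89 and -2.81. The remaining falls among the 15 largest, Skil, Nupr1 and Col1a2, are described with their groups. These 15 falls, too, were called in each of the 16 alternatives.

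Tgfbr1 itself, whose product RepSox inhibits, was not called. Its level was 8.83, 8.83 and 8.87 on the untreated arrays and 9.01, 9.03 and 9.13 on the treated arrays, a log2 change of 0.21 (SE 0.12, adjusted p = 0.162). Of 15 tested genes for TGF-beta ligands, receptors and binding proteins, 5 rose and 5 fell. Among ligands, Tgfb3 rose by 1.65, Inhbb (the activin B subunit) by 1.51 and Tgfb2 by 1.01 log2 units. The log2 change of Tgfb1 was 0.01 with all arrays and -0.32 without treated array 3 (adjusted p = 0.963 and 0.0156). Tgfb1 lay close to background, at means of 4.94 and 4.95, and was detected on 1 of the 3 treated arrays, so neither value is a measured size. Among receptors, Acvr2b rose by 1.10, and Tgfbr2 and the co-receptor Eng fell, with log2 changes of -0.70 and -0.96. Ltbp3 and Ltbp4, which tether latent TGF-beta to the matrix, fell, with log2 changes of -1.18 and -0.71.

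Of 15 tested genes known to be induced by TGF-beta, 9 fell and 1 rose, with a median log2 change of -0.39, against 19.3% and 15.9% of all tested genes. Skil encodes SnoN, a Smad co-repressor that is itself a TGF-beta target. It measured 9.35, 9.53 and 9.41 on the untreated arrays and 6.11, 6.54 and 5.93 on the treated arrays, so that all treated arrays lay far below all untreated arrays, and it fell 9.43-fold. Il11, Bhlhe40, Tgfbi and Pmepa1 fell, with log2 changes of -1.66, -1.64, -1.37 and -1.06. Lox, the crosslinking enzyme lysyl oxidase, fell 4.45-fold from one of the highest levels on the arrays, 12.93, 13.03 and 13.07 on the untreated arrays, to 10.74, 10.72 and 11.12 on the treated arrays. Edn1, the endothelin 1 gene, ran the other way and rose 4.25-fold. Ccn2 (CTGF), another known target, stayed uncalled, with a log2 change of 0.20 (adjusted p = 0.292). Among 10 tested genes of Smads and their co-repressors, Skil and Smad5 fell and 0 rose, and the call for Smad5 was lost without treated array 3 (adjusted p = 0.0935), where 1 rose and 1 fell.

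Of 10 tested BMP target genes, 8 rose and 0 fell, with a median log2 change of 0.83, or 0.72 with Nog at its bound, and the same counts held without treated array 3. The Id genes encode inhibitors of basic helix-loop-helix transcription factors. Id4 measured 8.02, 7.82 and 7.61 on the untreated arrays and 10.00, 10.04 and 9.52 on the treated arrays and rose 4.11-fold, and Id2 measured 8.36, 8.15 and 7.96 on the untreated arrays and 9.62, 9.66 and 9.77 on the treated arrays and rose 2.87-fold. In both genes every treated array lay above every untreated array. Id1 rose by 0.64 log2 units. Id3 rose by 0.37, a call that was lost in 6 of the 16 alternatives. The transcription factor genes Hey1, Atoh8 and Msx2 rose by 1.97, 1.40 and 0.80. Nog, the BMP antagonist noggin, was detected on the treated arrays alone and rose at least 1.31-fold, whereas Chrd, the antagonist chordin, fell 4.54-fold.

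**Figure D2:**
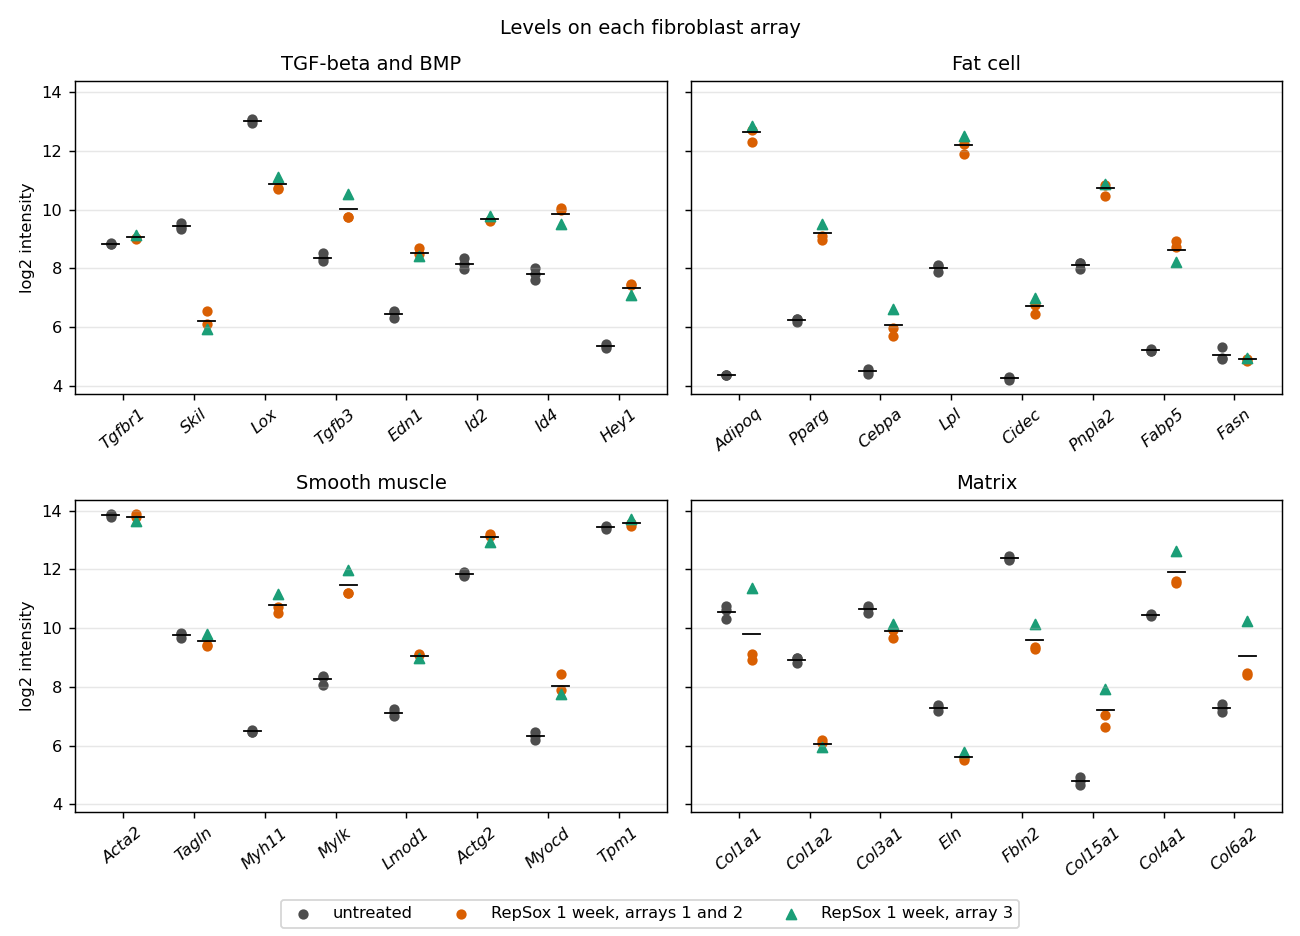
Log2 intensity (vertical axis) of 32 genes on each of the 6 fibroblast arrays, in panels by role. Circles are untreated arrays and treated arrays 1 and 2, triangles are treated array 3, and short lines are group means. Adipoq, Myh11 and Lpl are separated by more than 3 log2 units between groups, whereas Tgfbr1, Acta2, Tpm1 and Fasn are close to level. For Col1a1, Col6a2 and Col4a1 the triangle lies far above the other treated arrays.

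Genes that control fat cell development also changed. Of 10 tested transcription factors of fat cell development, 5 rose and 1 fell. Pparg, a lipid-sensing nuclear receptor needed to form fat cells, measured 6.27, 6.16 and 6.29 on the untreated arrays and 9.12, 8.97 and 9.49 on the treated arrays and rose 7.77-fold (adjusted p = 1.67e-18). Cebpa was detected on every treated array and on none of the untreated arrays and rose at least 2.43-fold. Ebf1 rose by 0.91 and Srebf1 by 0.57 log2 units, and Ebf2 fell by 0.28. The probes used for Srebf1 and Ebf2 were detected on 1 of the 3 untreated and 1 of the 3 treated arrays, so both sizes rest partly on background. Over the alternatives, 0 to 1 of these transcription factor genes fell. The level of Cebpb, which acts early in differentiation, was 10.16, 10.21 and 10.28 on the untreated arrays and 10.09, 10.16 and 10.44 on the treated arrays, with no call. Among 10 tested genes that mark precursor cells or restrain differentiation, 6 fell and 3 rose. Klf2, Gata3 and Sox9 fell, with log2 changes of -1.69, -1.20 and -0.92, while Dlk1, known as the preadipocyte marker Pref-1, and Gata2 rose by 0.89 and 0.66.

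Of 22 tested genes of fat cell lipid metabolism, 15 rose and 4 fell, with a median log2 change of 1.01, or 0.87 with undetected genes at their bound, and 15 rose and 6 fell without treated array 3. Of the 22, 4 were detected only on treated arrays, so they entered the test through the group in which they were high. The lipid droplet proteins Cidec and Plin4 measured 4.30, 4.21 and 4.26 on the untreated arrays and 6.74, 6.44 and 7.00 on the treated arrays for Cidec and 5.16, 4.94 and 4.98 on the untreated arrays and 7.47, 7.34 and 7.57 on the treated arrays for Plin4. The treated arrays of both lay at least 1 log2 unit above every untreated array, and Cidec rose at least 3.78-fold. Pnpla2, the lipase that opens triglyceride breakdown, rose 6.14-fold, and the fatty acid transporter Slc27a1 rose 6.62-fold. Slc27a1 was detected on 1 of the 3 untreated arrays, so its size rests partly on background. Agpat2 and Dgat2, enzymes of triglyceride synthesis, rose 4.15-fold and 2.76-fold, and the glycerol channel Aqp7 at least 1.79-fold. Several genes of new fatty acid synthesis did not rise. Acaca, Elovl6, Scd2 and Me1 fell, with log2 changes of -0.41, -0.38, -0.90 and -0.96, and Fasn and Acly had log2 changes of -0.16 and -0.15 with no call. Fabp4 and Cd36, other classical fat cell genes, were detected on none of the 6 arrays, and 4 members of this list in all were undetected there. The probes used for Fabp4 and Cd36 were detected on 0 of the 21 other arrays too. For both, a silent gene and a probe that gives no signal cannot be told apart.

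Of 10 listed genes of fat cell products, not all of them secreted, 5 were tested and 5 rose. Of the 5, 2 were detected only on treated arrays. Beside Adipoq, these were Nnat, Rbp4 (the retinol carrier) and Angptl4, at 2.49, 1.70 and 0.42 log2 units, and Lcn2, at least 1.99-fold higher. The call for Angptl4 was lost without treated array 3 (adjusted p = 0.0923). The probes used for Nnat and Rbp4 were each detected on 1 of the 3 untreated arrays, so their sizes rest partly on background. Over the 7 measured fat cell markers, the summed intensity was 405 to 457 on the untreated arrays and 9600 to 14300 on the treated arrays, where Adipoq and Lpl made up 92.8% to 93.6% of it. The sum of the other 5 markers was 151 to 161 on untreated and 696 to 1030 on treated arrays. Of these markers, 2 were detected on all untreated arrays and 6 on all treated arrays. Of brown fat genes only Cox7a1 and Cox8b passed the filter. Cox7a1 fell by 0.47, Cox8b was detected only on treated arrays and was at least 1.16-fold higher, and 7 of 9 were detected on no array.

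Of 16 tested contractile genes of smooth muscle, 10 rose and 0 fell, with a median log2 change of 0.84. Without treated array 3, 9 rose. Mylk, which encodes the myosin light chain kinase that triggers contraction, measured 8.37, 8.07 and 8.34 on the untreated arrays and 11.21, 11.19 and 11.99 on the treated arrays and rose 9.22-fold. Lmod1, an actin nucleator of smooth muscle, measured 7.23, 7.15 and 6.99 on the untreated arrays and 9.09, 9.13 and 8.98 on the treated arrays and rose 3.84-fold. In each gene the groups were separated by more than 1 log2 unit. Ppp1r14a, Mrvi1, Actg2 (the enteric smooth muscle actin), Smtn and Des rose by 1.87, 1.45, 1.27, 1.16 and 0.95 log2 units.

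The best known markers of the myofibroblast, Acta2 and Tagln, were not called. The brightest probe for Acta2 (smooth muscle actin) read 13.85, 13.79 and 13.88 on the untreated arrays and 13.78, 13.89 and 13.63 on the treated arrays, a log2 change of -0.07 (SE 0.12, adjusted p = 0.672). The other 3 Acta2 probes were higher with RepSox by 0.49, 0.60 and 0.65 log2 units, so the direction for this gene depends on the probe. The brightest probe read high in both groups, and whether it could read higher was not tested. Tagln (SM22) read 9.85, 9.81 and 9.67 on the untreated arrays and 9.44, 9.39 and 9.81 on the treated arrays, and its groups overlapped. Tpm1, Cald1 and Vim were not called either, at 0.15, 0.27 and 0.25, and Cnn1 was detected on none of the 6 arrays. The Cnn1 probe used was detected on 0 of the 21 other arrays too, so a silent gene and a probe without signal cannot be told apart. Of 13 tested regulators of this programme 4 rose and 2 fell, a called share of 46.2% against 35.2% of all tested genes. Without treated array 3, 6 rose. Myocd, the coactivator myocardin, rose 3.27-fold on its brighter probe, while its dim second probe changed by 0.04. Csrp1 rose by 1.32, and Csrp2 and Mef2c fell, with log2 changes of -1.08 and -0.81. Srf had a log2 change of 0.26 with all arrays and 0.43 without treated array 3 (adjusted p = 0.118 and 0.00549). Over the 7 smooth muscle markers, the summed intensity was 15600 to 16400 on untreated and 17100 to 18600 on treated arrays, most of it from the brightest Acta2 probe. The sum of the other 6 markers was 1320 to 1420 on untreated and 3150 to 4490 on treated arrays. Mcam and Notch3, known from pericytes, rose by 1.65 and 1.02, and Rgs5, another pericyte gene, fell by 1.09.

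The promoter of Cnn2, a contractile gene that rose by 0.57 (adjusted p = 0.00356, 0.101 without treated array 3), is shown. Of 13 tested contractile genes with a promoter to search, only Cnn2 held a CArG box there. The CArG box is the element bound by Srf. It was searched on both strands of the window from 250 bases before to 50 bases after the RefSeq start site (GRCm38.p6), and 1.63% of the 32841 promoters of this length held it. Counted by gene, 1.81% of 27018 held it in a promoter. Capitals mark the box in the sequence from chr10:79988350-79988649, plus strand. No match in the other windows says only that these letters are absent there.
Cnn2: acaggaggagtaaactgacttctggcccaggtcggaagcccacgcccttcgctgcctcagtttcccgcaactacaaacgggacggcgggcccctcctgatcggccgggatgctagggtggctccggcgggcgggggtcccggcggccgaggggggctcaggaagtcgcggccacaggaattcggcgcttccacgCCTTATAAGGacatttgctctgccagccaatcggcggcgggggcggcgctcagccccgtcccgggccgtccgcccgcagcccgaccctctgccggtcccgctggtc

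Of 9 tested genes of fibrillar collagens and collagen VI, 6 fell and 2 rose. Col1a2, one of the chains of collagen I, measured 8.80, 8.99 and 8.98 on the untreated arrays and 6.09, 6.19 and 5.94 on the treated arrays and fell 7.22-fold (adjusted p = 7.71e-19). Its partner Col1a1 rested on 1 array. It measured 10.31, 10.62 and 10.74 on the untreated arrays and 8.90, 9.11 and 11.35 on the treated arrays, so that treated arrays 1 and 2 lay below every untreated array and treated array 3 above them. The log2 change of Col1a1 was -0.77 with all arrays (adjusted p = 0.0799) and -1.55 without treated array 3 (adjusted p = 5.06e-09). Col5a2, Col3a1 and Col5a1 fell, with log2 changes of -1.51, -0.73 and -0.68, and were called with and without that array. Col6a1 and Col6a2, chains of the beaded-filament collagen VI, rose by 0.98 and 1.76, and by 0.55 and 1.16 without treated array 3.

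Of 17 tested genes that process or crosslink collagen, 14 fell and 2 rose, and without treated array 3 the counts were 13 and 2. Pcolce, which enhances removal of the collagen C-propeptide, and P4ha1, a prolyl hydroxylase, fell 2.64-fold and 2.23-fold. The relative Loxl2 rose by 1.16, and P3h2, a prolyl 3-hydroxylase, was undetected on untreated arrays and rose at least 2.64-fold. The elastic fibre genes fell furthest as a list. Of 10 tested, 8 fell and 1 rose, with a median log2 change of -1.53, and without treated array 3 the counts were 9 and 0. Fbln2 (fibulin 2) measured 12.30, 12.35 and 12.47 on the untreated arrays and 9.27, 9.36 and 10.14 on the treated arrays and fell 6.88-fold. Mfap4, a microfibril-associated protein, was detected on every untreated and on none of the treated arrays and was at least 5.14-fold lower. Eln, the elastin gene itself, measured 7.32, 7.38 and 7.19 on the untreated arrays and 5.52, 5.58 and 5.77 on the treated arrays, with no overlap between groups, and Emilin1 and Mfap5 fell, with log2 changes of -1.94 and -1.72.

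Of 14 tested basement membrane genes, 6 rose, 2 fell and 6 were not called, with the same numbers of rises and falls without treated array 3. Col15a1, which bridges basement membranes and the matrix beneath, measured 4.66, 4.93 and 4.78 on the untreated arrays and 7.03, 6.65 and 7.94 on the treated arrays and rose 5.34-fold. Col4a1 measured 10.45, 10.49 and 10.41 on the untreated arrays and 11.53, 11.62 and 12.62 on the treated arrays, above every untreated array on each treated array, and Col4a2 and Col18a1 rose by 1.21 and 1.59. Lama2 and Col4a5 fell, with log2 changes of -0.70 and -0.79. Of 14 tested proteoglycans and glycoproteins of the matrix, 8 fell and 5 rose. Thbs2 and Thbs3 (thrombospondins), the hyaluronan synthase Has2 and Ogn fell, with log2 changes of -1.89, -1.47, -1.36 and -1.33, while Dcn (decorin) and Tnc (tenascin C) rose by 1.00 and 0.94.

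Of 21 tested matrix proteases and inhibitors, 9 fell and 5 rose. The inhibitor Timp1 fell 3.59-fold from 13.32, 13.38 and 13.25 on the untreated arrays, and Timp4 rose at least 2.24-fold. Of the proteases, Mmp23 and Mmp3 fell, with log2 changes of -1.96 and -1.13, and Plau (urokinase) rose by 1.37. Mmp13 fell by 1.49 on its brightest probe, and its 2 dimmer probes differed by -0.97 and 0.01. Of 20 tested integrin and adhesion genes, 10 rose and 4 fell. Those that rose included Itga7 and Itga3 (laminin receptor subunits) and the adaptor Lims2, at 1.74, 1.37 and 1.82 log2 units. The integrins Itgb5 and Itgav, which activate latent TGF-beta, and the collagen receptor Itga11 fell, with log2 changes of -1.81, -1.08 and -1.75. Itga5, the fibronectin receptor subunit, measured 7.90, 7.90 and 7.82 on the untreated arrays and 8.18, 8.33 and 10.04 on the treated arrays, and its rise was not called without treated array 3 (log2 change 0.38, adjusted p = 0.153).

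**Figure D3:**
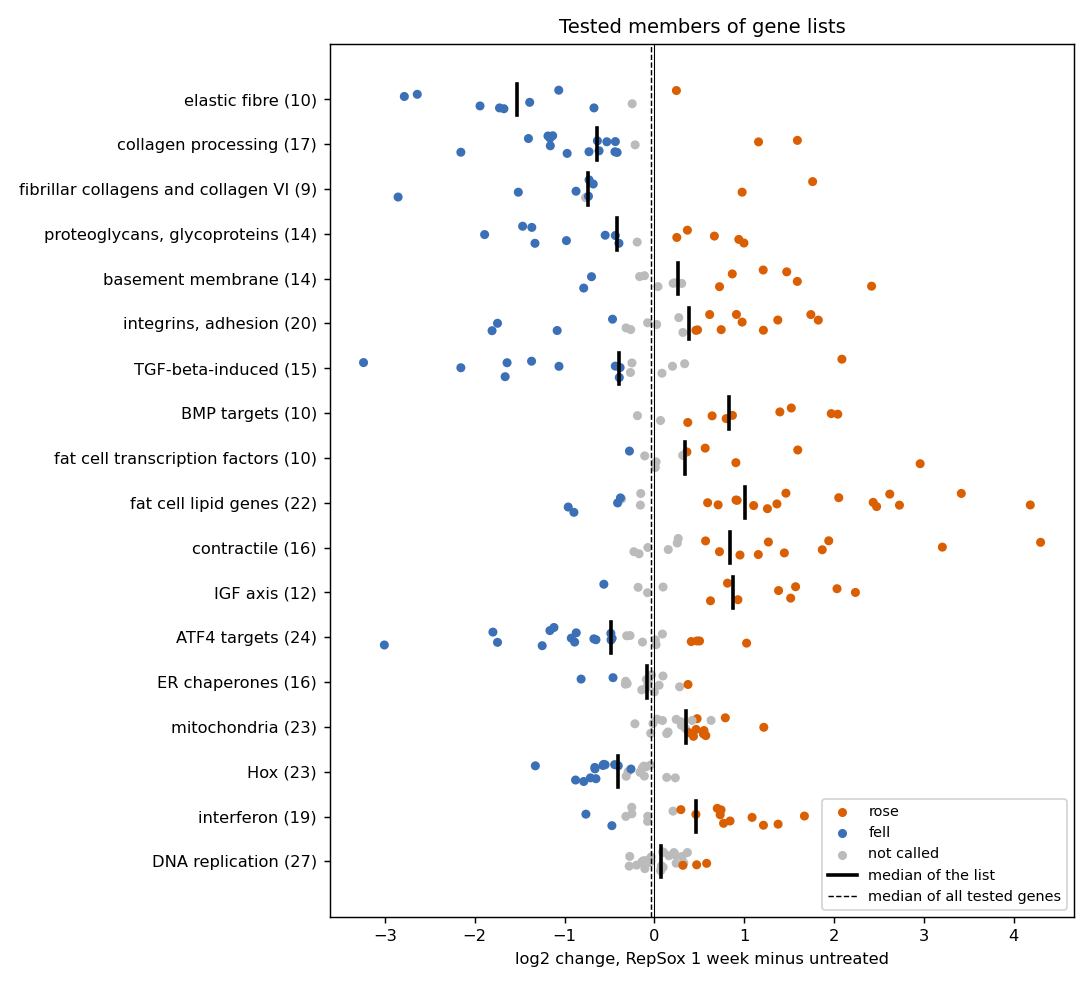
Log2 change with 1 week of RepSox (horizontal axis) of the tested members of 18 gene lists, with the number tested in brackets. Each point is a gene, orange where it rose, blue where it fell and grey where it was not called, thick lines are list medians and the dashed line is the median of all tested genes. The elastic fibre list has its median at -1.53, while BMP targets, fat cell lipid genes and contractile genes have theirs between 0.83 and 1.01.

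Genes that the transcription factor ATF4 induces when amino acids run short were largely lower. ATF4 and the C/EBP proteins bind a shared element in their promoters, and the targets include amino acid synthetases, transporters and the stress regulators Nupr1, Chac1, Ddit3 and Trib3. Of 24 tested members, 14 fell and 4 rose, with a median log2 change of -0.48, and 14 fell and 3 rose without treated array 3. Nupr1, a chromatin-associated stress protein, measured 11.77, 11.88 and 11.86 on the untreated arrays and 8.84, 8.72 and 8.94 on the treated arrays and fell 8.03-fold (adjusted p = 1.35e-14). Chac1, which degrades glutathione, measured 9.40, 9.57 and 9.45 on the untreated arrays and 7.80, 7.97 and 7.40 on the treated arrays and fell 3.35-fold. Asns, asparagine synthetase, measured 11.61, 11.75 and 11.64 on the untreated arrays and 10.78, 10.72 and 10.15 on the treated arrays and fell 2.17-fold. In these 3 genes every treated array lay below every untreated array. Trib3, a pseudokinase that restrains the response, fell by 1.25 log2 units. Atf5 and the amino acid transporters Slc7a3 and Slc7a5 fell, with log2 changes of -1.80, -1.16 and -0.93. The transcript of Atf4 itself had a log2 change of -0.13 (adjusted p = 0.638). Slc7a11 and Phgdh, at 0.09 and 0.02, were not called, and Vldlr rose by 1.03. Of 16 tested chaperones and folding enzymes of the endoplasmic reticulum, 2 fell and 1 rose. The main chaperone Hspa5 had a log2 change of -0.32 with no call.

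The promoters of 4 ATF4 targets that fell are shown with the C/EBP-ATF type element TGATGNAAN in capitals. They were picked from the members that fell and hold the element, so that they share it was fixed in advance. The element was searched on both strands of the same RefSeq window of 300 bases (GRCm38.p6), and it overlaps no other motif searched here. Of all 32841 promoters, 3.95% held it, and of the 27018 genes searched, 4.49% held it in a promoter. List members are counted as genes. Among the 24 tested list members, 20 had a promoter in the table and 7 of these held the element. Of the 11 members with a promoter that fell, 5 held it, namely Nupr1, Chac1, Asns, Trib3 and Aars. Of the 3 that rose, Vldlr held it, and of the 6 not called, Slc7a11 did. The list was assembled from known ATF4 targets, so the element is no independent finding, and a match is not shown to be a bound site. Positions below count from the start site, which is 1, and each sequence runs 5′ to 3′ on the strand of its gene.
Nupr1, chr7:126625421-126625720, minus strand, element at -111 to -103 on the opposite strand: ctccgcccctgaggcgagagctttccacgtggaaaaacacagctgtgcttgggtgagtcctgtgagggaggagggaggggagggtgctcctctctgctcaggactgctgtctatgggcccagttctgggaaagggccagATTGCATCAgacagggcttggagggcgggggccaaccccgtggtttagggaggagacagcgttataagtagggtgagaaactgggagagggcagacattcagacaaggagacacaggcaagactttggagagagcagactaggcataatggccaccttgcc
Chac1, chr2:119350992-119351291, plus strand, element at -194 to -186 on the opposite strand: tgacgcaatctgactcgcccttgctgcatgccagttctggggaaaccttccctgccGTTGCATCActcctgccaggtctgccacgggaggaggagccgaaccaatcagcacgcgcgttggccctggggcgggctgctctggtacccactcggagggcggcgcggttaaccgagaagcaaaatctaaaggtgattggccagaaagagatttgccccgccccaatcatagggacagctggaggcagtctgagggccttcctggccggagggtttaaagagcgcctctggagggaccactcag
Asns, chr6:7693160-7693459, minus strand, element at -23 to -15 on the gene's strand: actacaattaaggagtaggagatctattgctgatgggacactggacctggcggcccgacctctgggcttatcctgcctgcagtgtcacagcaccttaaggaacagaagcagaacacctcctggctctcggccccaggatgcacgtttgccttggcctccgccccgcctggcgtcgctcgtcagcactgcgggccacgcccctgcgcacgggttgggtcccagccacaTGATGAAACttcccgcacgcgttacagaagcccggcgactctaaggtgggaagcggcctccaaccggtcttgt
Trib3, chr2:152344011-152344310, minus strand, element at 14 to 22 on the opposite strand: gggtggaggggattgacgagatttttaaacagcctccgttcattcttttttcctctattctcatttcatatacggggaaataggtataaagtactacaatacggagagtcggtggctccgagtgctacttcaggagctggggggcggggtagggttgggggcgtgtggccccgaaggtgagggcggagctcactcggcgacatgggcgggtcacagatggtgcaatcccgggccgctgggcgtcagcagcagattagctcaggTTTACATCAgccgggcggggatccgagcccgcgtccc

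Of 12 tested genes of the insulin-like growth factor axis, 8 rose, 1 fell and 3 were not called. Igfbp5, a binding protein secreted into the matrix, measured 9.12, 9.08 and 9.26 on the untreated arrays and 11.34, 11.33 and 11.51 on the treated arrays and rose 4.71-fold. Igfbp4 and Igfbp2 rose by 2.03 and 1.38, the receptor Igf1r by 1.57, its substrate Irs2 by 1.52 and the ligand Igf1 by 0.81 log2 units, and Igfbp3 fell by 0.56. Igf2 read high in both groups, at 13.56, 13.56 and 13.68 on the untreated arrays and 13.60, 13.74 and 13.74 on the treated arrays, with no call. Of 11 tested imprinted genes 6 rose and 0 fell, among them the cell cycle inhibitor Cdkn1c (1.94) and Mest (1.28).

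Of 25 tested Wnt pathway genes, 8 rose and 8 fell, against 15.9% up and 19.3% down among all tested genes. The ligands Wnt2 and Wnt10a fell, with log2 changes of -1.68 and -1.62, and the receptor Fzd7 and the antagonist Sfrp2 rose by 1.24 and 1.14. Of 7 tested Notch pathway genes 4 rose, including the ligand Jag1 (1.59), and 0 fell. Of 18 tested FGF and ERK pathway genes, 9 rose and 3 fell. The receptor Fgfr2 and the ERK phosphatase Dusp6 rose by 1.48 and 1.19.

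Of 19 tested chemokines and cytokines, 9 fell and 5 rose, with 2 of the 19 detected only on treated arrays. Beside Cxcl14 and Ccl5, Ccl9 rose 5.93-fold and Cxcl5 fell 3.34-fold. The stromal chemokine Cxcl12 fell 2.00-fold on its brightest probe, and its other probes differed less, by -0.41 and -0.43 log2 units. Of 19 tested interferon-induced genes 11 rose and 2 fell, and 2 of the 19 were detected only on treated arrays. The guanylate-binding proteins Gbp2 and Gbp3 and the GTPase Igtp rose by 1.67, 1.09 and 1.21, and the interferon signal transducer Irf9 fell by 0.76. Of 12 tested complement and acute-phase genes 8 rose and 2 fell, and 8 rose and 0 fell without treated array 3. Of these 12, 3 were detected only on treated arrays and entered the test that way. Of 5 tested leukocyte genes, 4 fell and 1 rose, and 3 fell and 1 rose without treated array 3. The lysozyme gene Lyz2 read 6.81, 7.05 and 7.53 on the untreated arrays and 5.75, 4.66 and 5.82 on the treated arrays and fell 3.30-fold. Lyz1, whose sequence is close to that of Lyz2 so that the probes may share signal, fell 3.58-fold. The summed intensity of the 3 measured leukocyte markers was 154 to 232 on untreated and 68.5 to 98.4 on treated arrays. Of these markers Ptprc and Tyrobp were detected on none of the 6 arrays, so the change in the sum restates that of Lyz2. The part of such cells in these results was not tested.

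Of 29 tested genes of glutathione and antioxidant defence, 10 fell and 9 rose. The glutathione transferases Gsta3 and Mgst1 rose 5.13-fold and 4.59-fold, and the peroxidase Gpx7 and the quinone reductase Nqo1 fell, with log2 changes of -2.03 and -1.20. Of 23 tested mitochondrial genes 9 rose and 0 fell, a called share of 39.1% against 35.2% of all tested genes. Without treated array 3, 6 rose, and 3 to 14 rose over the alternatives. Acadm and Cpt2, enzymes of fatty acid oxidation, rose by 1.22 and 0.79. Of 23 tested Hox genes, which keep the positional identity of fibroblasts, 13 fell and 0 rose, and 5 to 14 fell over the alternatives. Hoxb2, Hoxb4 and Hoxc6 fell, with log2 changes of -1.32, -0.88 and -0.79. Of 6 tested cartilage and bone genes, 5 fell and 0 rose, among them Col10a1 and Sox9, at -1.24 and -0.92.

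Few cell cycle genes were called. Of 27 tested DNA replication genes 3 rose (Cdc6, Pole and Rrm1) and 0 fell, and of 19 mitosis genes 2 rose and 3 fell, against 35.2% of all tested genes called. The median log2 changes of these lists were 0.08 and 0.07. Without treated array 3, 5 of the replication genes rose and 1 fell. With weights that give each array an influence by its own spread, 15 of the 27 replication genes rose. Of 5 tested pluripotency genes 1 rose and 1 fell, each at least 2-fold, and 2 rose and 1 fell without treated array 3. The stem cell gene Mycl rose by 1.98. Zfp42 read 5.02, 5.30 and 5.18 on the untreated arrays and 5.19, 5.18 and 4.86 on the treated arrays with no call.

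**Figure D4:**
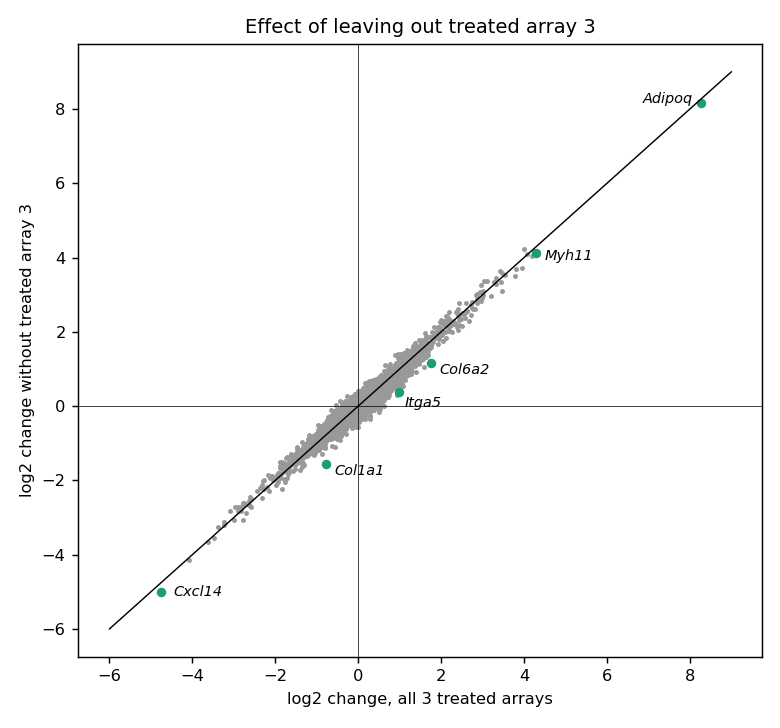
Log2 change of each tested gene with all 3 treated arrays (horizontal axis) and without treated array 3 (vertical axis). Each grey point is a gene, the line marks equal changes and green points are named genes. Adipoq, Myh11 and Cxcl14 lie near the line, while Col1a1, Itga5 and Col6a2 lie below it, at -1.55, 0.38 and 1.16 without treated array 3 against -0.77, 0.98 and 1.76 with it.

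The closest other comparison of the series was RepSox on OKMS6 cells at 48 h. OKMS6 cells descend from fibroblasts transduced with virus and stopped partway in reprogramming, and viral Sox2 is the factor that their labels mention. The effect differed between the cell types, in a contrast of the 2 effects within the same fit, for 3070 genes, 35.5% of those tested, with 1480 higher in fibroblasts and 1590 lower. Cell type and time differ together and cannot be told apart. Mylk rose in fibroblasts, while in OKMS6 cells it had a mean of 7.10 without RepSox and was detected on none of the treated arrays. The difference was called (adjusted p = 1.1e-16), and its size is not given because 1 of the groups was not above background. Acta2 had the opposite pattern on the probe used. It was not called in fibroblasts, where its other 3 probes were higher with RepSox, and rose by 2.13 in OKMS6 cells. On this probe untreated fibroblasts already read 13.84, and whether it could read higher was not tested. The fitted difference of -2.20 (SE 0.17) is therefore not read as a measured size. Igf2 rose by 4.15 in OKMS6 cells from a mean of 6.70, while fibroblasts already stood at 13.60 without RepSox. Whether the probe could read higher was not tested, so the sizes of the effects are not compared. The 8.03-fold fall of Nupr1 had a counterpart in OKMS6 cells. Its log2 change there was -2.95, and the difference of -0.06 (SE 0.22, adjusted p = 0.874) was not called. Id1 rose by 0.64 in fibroblasts and 0.76 in OKMS6 cells, and the difference of -0.12 (SE 0.20) was not called either. Skil fell in both, with a difference of -2.26. Pparg, Lpl and Myh11 were detected on none of the OKMS6 arrays at 48 h, so no change could be measured there.

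**Figure D5:**
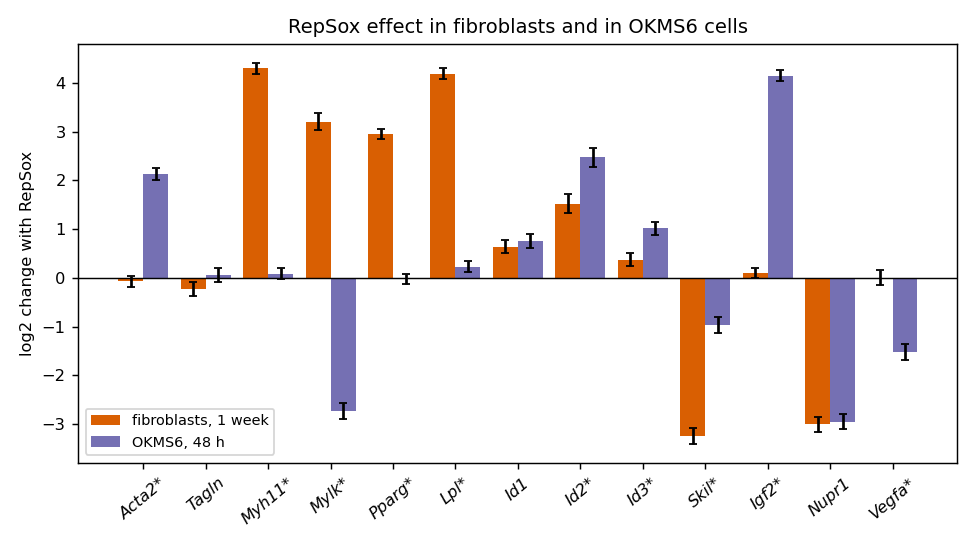
Log2 change with RepSox (vertical axis) in fibroblasts at 1 week (orange, n = 3 against 3) and in OKMS6 cells at 48 h (purple, n = 3 against 3) for 13 genes, with error bars of 1 SE from the common fit. Asterisks mark genes whose effects differed at an adjusted p under 0.05. Bars of Myh11, Pparg, Lpl and Tagln in OKMS6 cells, and the treated side of Mylk there, come from arrays that did not detect the gene. Mylk moves in opposite directions, and the bars of Nupr1 and Id1 are of similar height in both. The Acta2 and Igf2 bars are tall in OKMS6 cells and near 0 in fibroblasts, where the probes used read 13.84 and 13.60 without RepSox.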

How the data were processed

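Total RNA was extracted with Trizol and labelled with biotin by an Ambion Illumina TotalPrep kit, per the labels' protocols, and the submitters' processing notes name BeadStudio. The authors deposited an intensity and a detection p-value for each probe and array, before normalization as far as the values show. Intensities were background-corrected and quantile-normalized by neqc of limma 3.58.1 in R 4.3.3, which took the background from the detection p-values and used an offset of 16, and were expressed as log2. The 27 arrays of 9 groups were fitted together with lmFit and eBayes, so each gene's spread was pooled over the 9 groups. The median SD over tested genes was 0.0827 among untreated and 0.199 among treated fibroblast arrays. V6.5 was left out because 2 of its 3 arrays were dim. The brightest probe stood for a gene, and genes detected (p under 0.05) on at least 3 of the 6 fibroblast arrays were tested, two-sided, with Benjamini-Hochberg adjustment. All adjusted p-values are from limma, and the number of arrays limits the precision. Of 25697 probes, 23978 had 1 gene symbol in the platform annotation and 1719 were not listed. A rise from, or a fall to, a group in which no array detected the gene is given as at least N-fold, the bright group's mean over the higher of the lowest detected signal and the dim probe's own value. Where only some arrays of a group detected the gene, the size is given as fitted and rests partly on background. The authors' processed table in log2 was an alternative, and the steps behind it are not stated.

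The 15 largest rises and falls without overlap between groups were named, leaving out provisional names, with up to 4 members of each of 52 lists by adjusted p and any other member as a described value, Tgfbr1, the cell type markers and a set for the OKMS6 contrast. The members and lists were chosen with earlier results of these data known, so they are no independent support. Same-numbered treated and untreated arrays had deviations from their group means that correlated at 0.0552, 0.127 and 0.219, and the numbers were not taken as pairs.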

Additional observations from a re-analysis of the deposited data

Results flagged for a closer look

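A test of the difference between the 2 RepSox effects, in fibroblasts after 1 week and in OKMS6 after 48 h, called 3070 genes, with cell type and time changing together. Of the 13 tested genes chosen for this contrast, 10 differed. The log2 effect was higher in fibroblasts by 1.52 for Vegfa, which had a log2 change of 0.002 with no call in fibroblasts and fell by 1.52 in OKMS6 cells. The fitted differences of 5.94 for Mylk, 4.21 for Myh11, 3.96 for Lpl and 2.99 for Pparg take in OKMS6 arrays that did not detect the gene (the treated ones for Mylk, both groups for the others), so their sizes are no measured values. The fibroblast minus OKMS6 difference was -2.26 for Skil, -0.95 for Id2 and -0.65 for Id3. It was -4.05 for Igf2 and -2.20 for Acta2 on its brightest probe, where untreated fibroblasts already read 13.60 and 13.84. Whether these probes could read higher was not tested.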

How the results depend on the processing

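Against 3046 genes called, 1690 were called with all 30 arrays, V6.5 included, and 646 when a 2-fold change was also required. A fit of only the 6 fibroblast arrays called 2117. Against 3070 genes with a different effect in OKMS6 cells, 1459 were called with all 30 arrays and 1239 from the authors' processed table. In that table the untreated and treated columns of OKMS6 48 h replicate 3 match each other's scanner values. Leaving out 1 fibroblast array at a time gave 2532 to 3158 and 2748 to 3155 genes, and array weights gave 4171 and 4353. Median scaling gave 1294 rises and 1082 falls, 54.5% rises against 45.1%, and for the difference 62.6% higher against 48.2%, with its median moving from -0.05 to 0.08. With the replicate number as a block, a pairing the labels do not give, 3077 and 3101 genes were called.

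Of the named genes' values under the alternatives, 3587 kept direction and call, 75 lost the call, 15 gained one and 3 reversed. Tgfb1, which lay close to background, turned to -0.31 with array weights and to -0.32 without treated array 3. Its values with 1 array left out ranged from -0.32 to 0.19. Acta2 turned to 0.42 as the mean of its probes. The Id2 difference from OKMS6 cells turned to 0.31 in the authors' processed table. That is the table in which the OKMS6 48 h replicate 3 columns match each other's scanner values. The part of this in the turn was not tested. In that table the Id3, Acta2, Igf2 and Vegfa differences also lost their calls.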
